A study of Mus musculus with 2 samples.

Results

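The 8 genes described here, Tsc22d3, Sgk1, Fkbp5, Klf9, Nr3c1, Ddit4, Dusp1 and Zfp36l2, are genes that glucocorticoids induce in many tissues, together with the gene of the glucocorticoid receptor. They were listed by name because fasting raises glucocorticoids, with earlier results of these data known, and all 8 were found among the 30905 genes of the count tables and detected in both libraries. Single-cell libraries (10x Genomics 3′ chemistry, in which every captured molecule carries a unique molecular identifier, UMI) had been made from CD45+ leukocytes sorted from colorectal tumor tissue of male C57BL/6 mice. All mice carried tumors induced with the carcinogen azoxymethane (12 mg/kg) followed by dextran sodium sulfate, which injures the colon lining, at 2.5% over 3 cycles. One group ate ad libitum, and from cycle 2 the other received a diet that mimics fasting (FMD) by restricting calories. Each diet was represented by 1 library pooled from 4 mice, so that the spread between mice was not measured, no test between the diets was possible and every difference below is one between these 2 libraries. The labels call the tissue of both libraries tumor, while the protocol they share also describes normal colon from matching locations, and whether any of it entered these libraries is not given. The age of the mice, and the time between the last diet period and the harvest, are not given in the sources used here, and no hormone measurement was used here.

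Glucocorticoids are steroid hormones of the adrenal cortex. They bind the receptor encoded by Nr3c1, which HSP90 and its co-chaperones hold in the cytoplasm, and the bound receptor enters the nucleus and acts on genes directly through DNA elements or by restraining other factors. In leukocytes the hormone is known for damping inflammatory signaling, for shifting lymphocytes between tissues and for killing immature lymphocytes. None of the induced genes answers to the hormone alone: Ddit4 also responds to hypoxia and amino acid shortage, Dusp1 is an immediate early gene of stress and growth signals, and Klf9 responds to thyroid hormone as well.

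The kept cells were 4865 from the ad libitum library (median 5506 UMIs per cell) and 4618 from the FMD library (median 5742 UMIs), and 4 kept barcodes occurred in both. Cell classes were rebuilt from the counts with the 8 genes left out of the clustering. Classes of 30 or more cells per library were used (11 classes). Innate lymphoid, mast and dendritic cell-like cells and cells without a name entered no comparison by class. They were part of the sums over all kept cells. CD45 itself (Ptprc) was detected in 92.0% of the ad libitum cells, with macrophage or monocyte-like cells of that library lowest at 74.8% against 91.7% in the FMD library. B cell-like cells formed the largest class with 3078 ad libitum and 2741 FMD cells. The innate lymphoid cell-like class, left out of the classes compared for its low number in the ad libitum library, held 25 and 81 cells. A class led by Xcl1, Il22 and Klra7 took no name from the marker lists, though NK cell markers scored best in it. It was kept all the same and is called the Klra7-led class (155 and 143 cells). The class called T cell-like, without a subtype, was led by Igfbp4, Lef1 and Dapl1 (271 and 305 cells). Levels are given as CPM, the UMIs of a gene scaled to 1000000 UMIs of the class outside immunoglobulin and mitochondrial genes. Intervals are exact 95% intervals that cover counting error and nothing else.

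The receptor gene Nr3c1 (ENSMUSG00000024431, protein-coding) was highest in gamma delta T cell-like cells, at 388 CPM (ad libitum) and 416 CPM (FMD). Regulatory T cell-like cells followed with 288 and 359 CPM, helper T cell-like cells with 221 and 243 CPM, and CD8 T cell-like cells with 148 and 215 CPM. The Klra7-led class held 141 and 146 CPM, neutrophil-like cells 98.5 and 97.0 CPM and germinal centre B cell-like cells 93.5 and 88.3 CPM. Down to this point of the order the ranges of the 2 libraries did not overlap between neighboring classes. Among the lowest classes each overlapped the next: T cell-like (68.7 and 70.0 CPM), plasma cell-like (71.7 and 57.4 CPM), B cell-like (70.5 and 57.4 CPM) and macrophage or monocyte-like cells (39.3 and 66.0 CPM). The mean of the top class was 7.63 times that of the bottom class. T cell classes other than the Lef1-led one thus held more receptor mRNA per UMI than B lineage or myeloid classes in both libraries.

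Fkbp5 (ENSMUSG00000024222; chr17:28399094-28517527, minus strand, GRCm38) encodes the HSP90 co-chaperone FKBP51, which lowers the affinity of the receptor for its hormone and so closes a feedback loop. It was scarce, with 389 UMIs in the kept ad libitum and 406 in the kept FMD cells. Gamma delta T cell-like cells were highest at 43.5 and 32.9 CPM, and the Klra7-led (28.9 and 29.9), helper T cell-like (22.6 and 27.4) and germinal centre B cell-like cells (24.2 and 23.9 CPM) came next. Regulatory T cell-like cells held 16.7 and 23.7 CPM and T cell-like cells 18.4 and 11.3 CPM. B cell-like cells were lowest at 7.56 and 5.96 CPM, beside CD8 T cell-like (5.63 and 9.68), macrophage or monocyte-like (10.2 and 9.43), neutrophil-like (14.6 and 5.11) and plasma cell-like cells (10.7 and 9.57 CPM). These 5 low classes rested on 1 to 119 UMIs per library, and each overlapped its neighbor in the order.

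Tsc22d3 (ENSMUSG00000031431; chrX:140539528-140600659, minus strand) encodes GILZ, a leucine zipper protein that restrains NF-kB and AP-1 and is among the most used readouts of glucocorticoid action in lymphocytes. B cell-like cells were highest, at 842 CPM (ad libitum) and 748 CPM (FMD), and held 76.5% and 72.3% of all Tsc22d3 UMIs of the kept cells. T cell-like cells were next with 554 and 532 CPM. CD8 T cell-like (345 and 465), plasma cell-like (391 and 369) and Klra7-led cells (385 and 348 CPM) overlapped one another. Helper T cell-like cells held 245.6 and 250.7 CPM, regulatory T cell-like cells 219 and 231 CPM, neutrophil-like cells 299 and 133 CPM and germinal centre B cell-like cells 163 and 182 CPM. Macrophage or monocyte-like (138 and 137 CPM) and gamma delta T cell-like cells (113 and 98.5 CPM) were lowest. The class with most receptor mRNA, gamma delta T cell-like, was therefore the one with least Tsc22d3, and B cell-like cells, with most Tsc22d3, were second to last for Nr3c1.

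Dusp1 (ENSMUSG00000024190; chr17:26505590-26562128, minus strand) encodes MKP-1, a phosphatase that switches off p38 and JNK kinases. Its annotated span overlaps Ergic1 on the opposite strand, which held 1036 UMIs over all barcodes against 18111 for Dusp1; whether the counting used strand is not given in the sources used here. Neutrophil-like cells stood far above the rest at 3358 and 4288 CPM, 36.55 times the mean of the lowest class, germinal centre B cell-like cells (128 and 81.0 CPM). The next 6 classes lay close together: Klra7-led cells at 455 and 544 CPM, macrophage or monocyte-like cells at 472 and 479 CPM, gamma delta T cell-like cells at 404 and 443 CPM, regulatory T cell-like cells at 439 and 370 CPM, helper T cell-like cells at 389 and 412 CPM and CD8 T cell-like cells at 419 and 376 CPM. T cell-like (220 and 202), plasma cell-like (238 and 155) and B cell-like cells (160 and 122 CPM) were lower.

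Sgk1 (ENSMUSG00000019970; chr10:21882184-21999903, plus strand) encodes a kinase that acts downstream of PI3K and mTORC2 on ion channels and FOXO factors. Macrophage or monocyte-like cells were highest at 118 and 164 CPM, and their share of a library's Sgk1 UMIs was 25.8% with ad libitum feeding and 49.4% with the FMD. Neutrophil-like cells held 54.8 and 46.0 CPM on 15 and 9 UMIs. CD8 T cell-like (31.5 and 45.2), Klra7-led (45.5 and 29.9), gamma delta T cell-like (50.5 and 24.6) and T cell-like cells (37.8 and 33.4 CPM) overlapped one another. Regulatory T cell-like cells held 25.7 and 23.7 CPM and helper T cell-like cells 23.5 and 21.6 CPM. B lineage classes were lowest, with 7.94 and 5.06 CPM in B cell-like, 4.58 and 5.74 CPM in plasma cell-like and 5.25 and 2.17 CPM in germinal centre B cell-like cells.

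Ddit4 (ENSMUSG00000020108; chr10:59949669-59951834, minus strand) encodes REDD1, an inhibitor of mTORC1. Gamma delta T cell-like cells were highest at 219 and 411 CPM. Regulatory T cell-like (118 and 208 CPM) and macrophage or monocyte-like cells (117 and 186 CPM) overlapped, as did helper T cell-like (81.2 and 95.5 CPM) and Klra7-led cells (62.2 and 101 CPM). The classes from neutrophil-like (32.9 and 30.6 CPM) through T cell-like (34.1 and 28.5), germinal centre B cell-like (42.0 and 19.5), CD8 T cell-like (39.4 and 19.4) to plasma cell-like cells (17.5 and 32.5 CPM) could not be ordered beyond the spread of the libraries. B cell-like cells were lowest at 15.4 and 11.2 CPM.

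Zfp36l2 (ENSMUSG00000045817; chr17:84183931-84187947, minus strand) encodes an RNA-binding protein that speeds the decay of mRNAs with AU-rich elements and holds lymphocytes in quiescence. CD8 T cell-like cells were highest at 1337 and 1718 CPM. Helper T cell-like (967 and 1231), Klra7-led (896 and 1026) and macrophage or monocyte-like cells (578 and 1006 CPM) came next. Regulatory T cell-like (554 and 694) and T cell-like cells (552 and 610 CPM) followed. CD8 T cell-like cells did not overlap helper T cell-like cells. From helper T cell-like cells down to T cell-like cells neighbors overlapped, while T cell-like cells did not overlap the next class below. Germinal centre B cell-like (363 and 373), gamma delta T cell-like (292 and 405), plasma cell-like (277 and 306), neutrophil-like (142 and 357) and B cell-like cells (212 and 195 CPM) formed the low end. Klf9 (ENSMUSG00000033863; chr19:23141226-23168134, plus strand), a zinc finger transcription factor, was scarce with 537 and 495 UMIs in the kept cells. Its order was the least firm of the 8, with 9 of 10 neighboring classes overlapping. Gamma delta T cell-like (45.2 and 52.0 CPM) and Klra7-led cells (36.8 and 57.0 CPM) were highest, ahead of CD8 T cell-like (40.5 and 22.6), macrophage or monocyte-like (29.9 and 16.2), T cell-like (21.0 and 18.5), helper T cell-like (18.1 and 20.6), neutrophil-like (7.30 and 25.5), B cell-like (16.1 and 13.6) and regulatory T cell-like cells (14.1 and 11.2 CPM). Germinal centre B cell-like (2.10 and 6.51 CPM) and plasma cell-like cells (3.05 and 3.83 CPM) were lowest, on 2 to 9 UMIs per library.

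**Figure D1:**
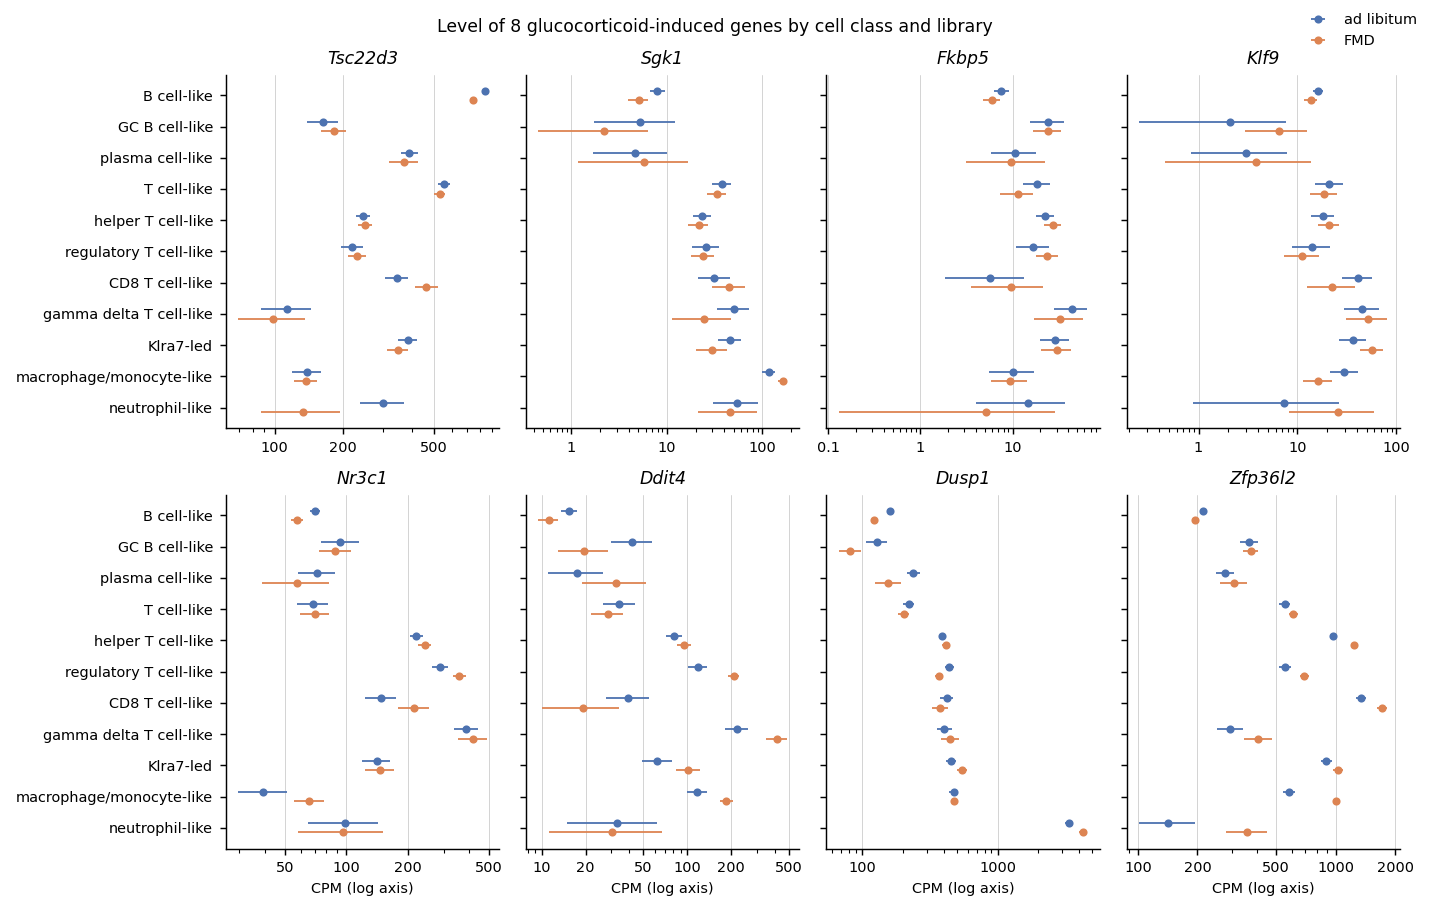
CPM (log axis) of each of the 8 genes in the 11 cell classes, for the ad libitum (blue) and the FMD library (orange), as points with exact Poisson 95% intervals. Tsc22d3 is highest in B cell-like cells at 842 and 748 CPM, Sgk1 in macrophage or monocyte-like cells at 118 and 164 CPM and Dusp1 in neutrophil-like cells at 3358 and 4288 CPM.

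**Figure D2:**
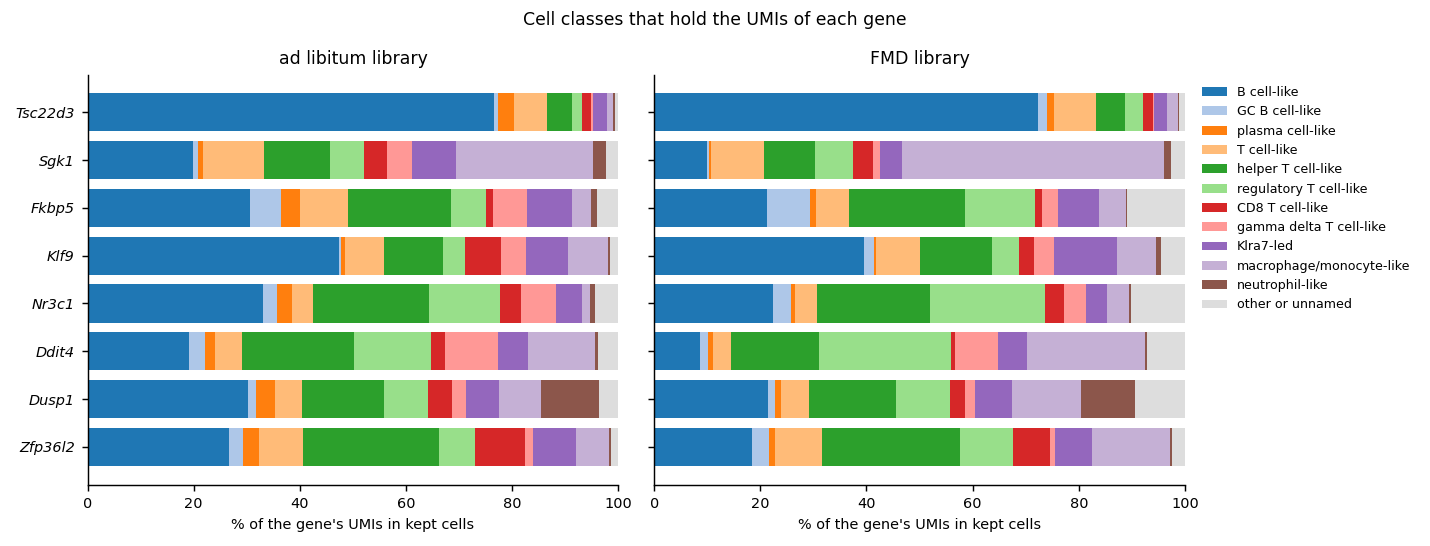
Share of each gene's UMIs in the kept cells of a library that each class holds, as stacked bars from 0 to 100%. B cell-like cells hold 76.5% and 72.3% of the Tsc22d3 UMIs, and macrophage or monocyte-like cells hold 25.8% and 49.4% of the Sgk1 UMIs. A share depends on the size of the class (127 and 168 macrophage or monocyte-like cells) as well as on the level in it.

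For Sgk1 and Dusp1 the stretch before a transcription start is shown. Of the 6 members searched, these were the only ones whose windows held a full match to a response element searched for. Promoter windows of 250 bases before to 50 after each start, from RefSeq (GRCm38.p6), were used for 6 of the 8 genes. The remaining members, the receptor gene among them, were not searched. The full palindrome of the glucocorticoid response element was written as AGAACA, any 3 bases and the reverse complement of AGAACA, and that of the cyclic AMP response element as TGACGTCA, both searched on both strands after the windows had been read. The 250 bases before the start are printed 5′ to 3′ in lower case with the match in capitals.
Sgk1, chr10:21993640-21993889, plus strand: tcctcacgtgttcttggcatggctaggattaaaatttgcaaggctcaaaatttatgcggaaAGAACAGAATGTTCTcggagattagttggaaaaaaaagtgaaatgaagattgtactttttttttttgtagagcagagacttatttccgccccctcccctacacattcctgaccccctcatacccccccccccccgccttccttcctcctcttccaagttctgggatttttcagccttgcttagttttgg
Dusp1, chr17:26508473-26508722, minus strand: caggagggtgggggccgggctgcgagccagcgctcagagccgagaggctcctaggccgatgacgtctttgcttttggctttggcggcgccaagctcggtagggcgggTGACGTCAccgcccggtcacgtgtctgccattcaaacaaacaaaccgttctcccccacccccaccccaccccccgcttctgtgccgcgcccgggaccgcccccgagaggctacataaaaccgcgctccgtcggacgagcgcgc
The Sgk1 match, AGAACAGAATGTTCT, begins 189 bases before the start. Of all 32851 promoter windows of this length, 3 (0.00913%) held this palindrome. The Dusp1 match begins 143 bases before the start, and 1.79% of the windows held TGACGTCA. Among the windows of Tsc22d3, Fkbp5, Klf9 and Ddit4 these letters were not found. A single arm of the first palindrome, AGAACA, was in 19.0% of all windows, overlaps the palindrome wherever that occurs, and was found 3 times in the Sgk1 window shown and once each in 1 Tsc22d3 window and 2 further Sgk1 windows.

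The comparison of the diets asked whether these genes were higher in leukocytes of the FMD mice. Summed over all kept cells they had no common direction. Ddit4 was higher in the FMD library (43.2 against 63.3 CPM, log2 ratio of FMD over ad libitum 0.55, interval 0.45 to 0.66), as were Zfp36l2 (427 against 522 CPM, 0.29), Sgk1 (21.3 against 25.1 CPM, 0.23) and Nr3c1 (114 against 126 CPM, 0.14). The direction of Sgk1 turned when each cell weighed the same (-0.089) and when the libraries were set to the same mix of clusters (-0.011). Tsc22d3 was lower (588 against 507 CPM, -0.21, interval -0.25 to -0.18). The intervals of Fkbp5 (0.06), Klf9 (-0.12) and Dusp1 (-0.02) included 0. So 4 members were higher and 1 was lower by their intervals, while 16.0% and 12.4% of the 10636 genes with at least 100 UMIs were higher and lower by the same rule. None of the 8 reached 1.5-fold in either direction, against 2.19% of genes past that fold upward and 1.53% downward. The median ratio of the 8 was 0.10 beside 0.01 for all genes, and it was -0.021 when the libraries were set to the same mix of clusters. The sums over all cells mix the level within classes with the number of cells of each class, so the classes are described one by one.

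**Figure D3:**
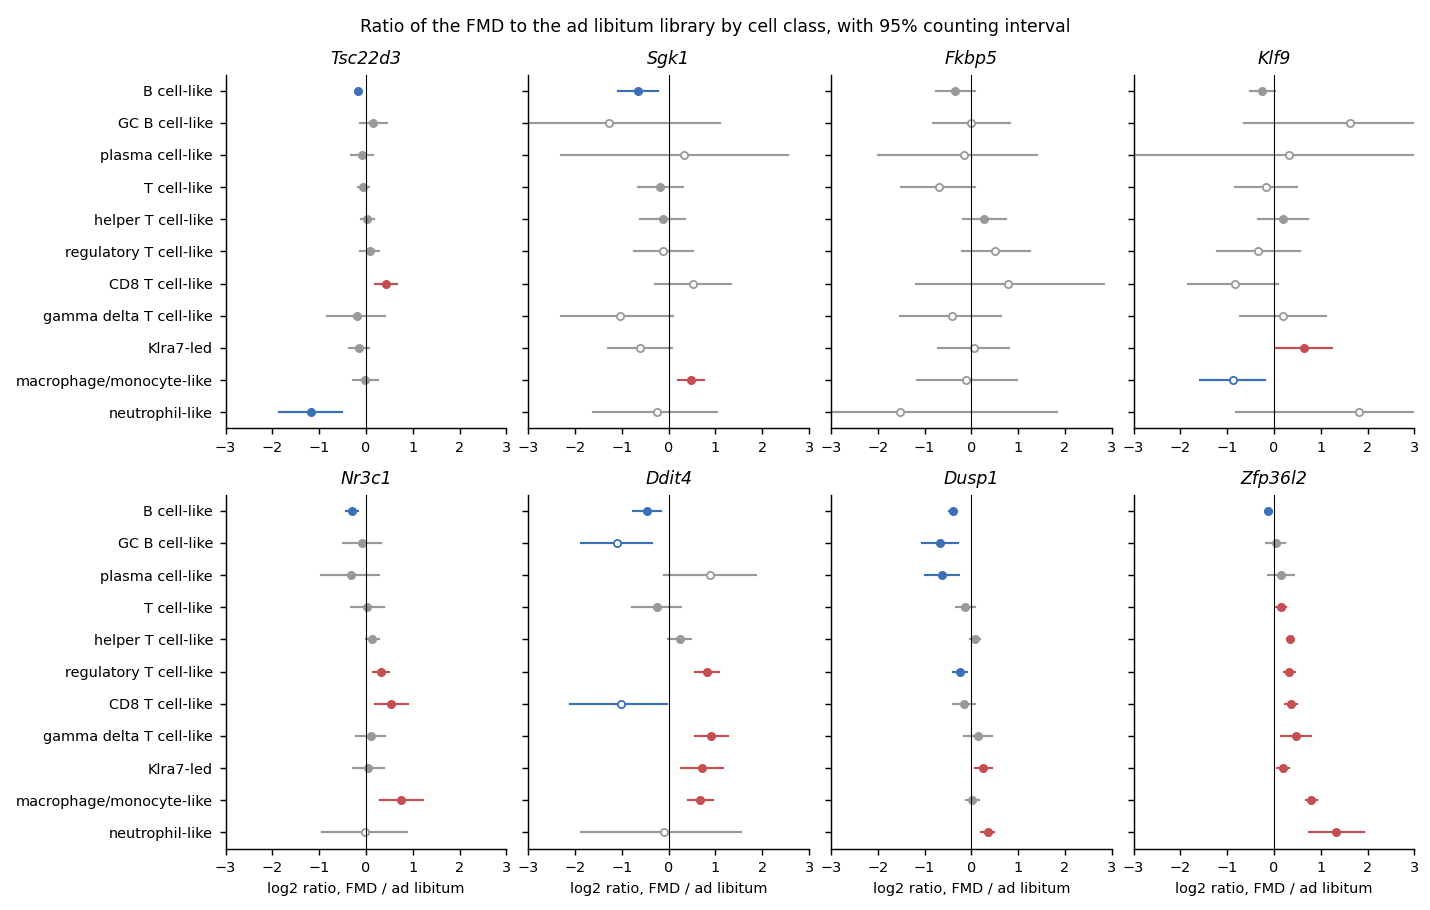
Log2 ratio of FMD over ad libitum CPM of each gene in the 11 classes, with exact 95% counting intervals (drawn to at most 3 in either direction); red marks intervals above 0, blue below 0, grey spanning 0, and open points have under 100 UMIs over both libraries. B cell-like cells have no ratio above 0, while Zfp36l2 lies above 0 by its interval in 8 of 11 classes.

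In B cell-like cells all 8 genes were lower in the FMD library. Sgk1 was 7.94 CPM (125 UMIs) in the ad libitum library against 5.06 CPM (73 UMIs), a log2 ratio of -0.65 (interval -1.09 to -0.22). Ddit4 was 15.4 and 11.2 CPM, a ratio of -0.46 (interval -0.76 to -0.17). Dusp1 was 160 and 122 CPM, a ratio of -0.39 (interval -0.48 to -0.30). These were the 3 lowest ratios among the members. Nr3c1 was 70.5 and 57.4 CPM (ratio -0.30, interval -0.43 to -0.16), so that the receptor gene was lower as well. Tsc22d3 and Zfp36l2, the most counted members, had small and precise ratios of -0.17 (842 and 748 CPM, interval -0.21 to -0.13) and -0.12 (212 and 195 CPM, interval -0.19 to -0.05). Fkbp5 (-0.34, interval -0.76 to 0.07) and Klf9 (-0.25, interval -0.52 to 0.03) were lower by amounts that counting error covers.

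By their intervals 6 of the 8 members were lower in B cell-like cells and 0 were higher, while of the 8700 genes with at least 100 UMIs in this class 9.9% were lower and 10.3% higher by that rule. One member, Sgk1, was at least 1.5-fold lower, where 0.713% of genes were, and 0 members were at least 1.5-fold higher, where 0.621% were. The median ratio of the 8 was -0.32 and that of all genes 0.00, with quartiles at -0.10 and 0.09. Of the genes tested, 0.46% had a lower ratio than Sgk1, 1.57% than Ddit4, 2.8% than Dusp1 and 21.8% than Zfp36l2, the member nearest to the middle. With the cluster mix set equal, Sgk1 was at -0.50, no longer past 1.5-fold. In cells thinned to 1000 UMIs Klf9 was at 0.27 and the median of the 8 at -0.18.

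**Figure D4:**
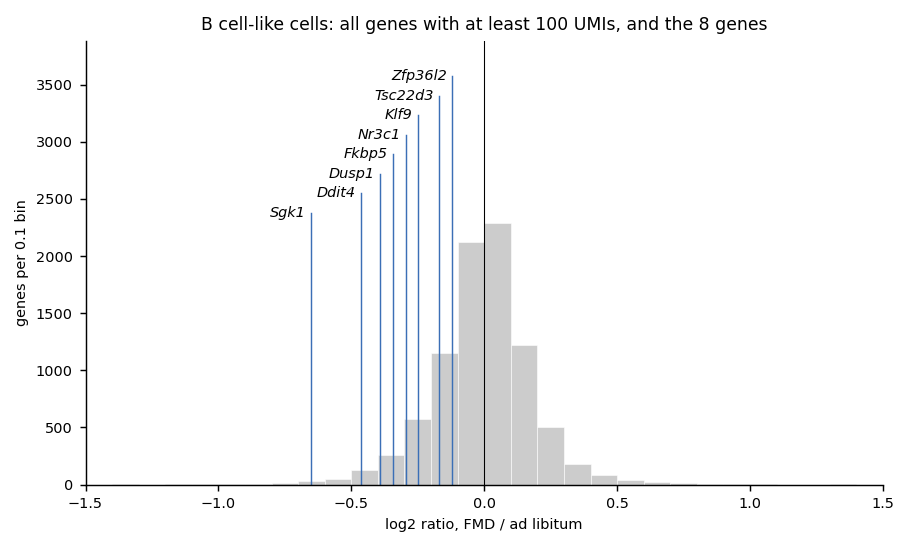
Number of genes per 0.1 of log2 ratio (FMD over ad libitum) in B cell-like cells, for the 8700 genes with at least 100 UMIs, with vertical lines at the 8 members. All members lie left of 0, from -0.65 for Sgk1 to -0.12 for Zfp36l2, and the median of all genes is at 0.00.

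Within the clusters that make up the B cell-like class most ratios were below 0 as well. The clusters are parts of the same 2 libraries and are not replicates. Tsc22d3, Nr3c1, Ddit4 and Dusp1 had ratios below 0 in 7 of 7 clusters, Zfp36l2 in 6 and Sgk1, Fkbp5 and Klf9 in 5 each. By interval Tsc22d3, Nr3c1 and Dusp1 were lower in 4 clusters each, Zfp36l2 in 2 and Fkbp5 in 1, and 0 of the 8 members was higher in any cluster. The share of all genes lower or higher by interval within each cluster is not given here, so these counts have no background. Tsc22d3 differed most in the cluster led by Bhlhe41 and Apoe (597 and 461 CPM, ratio -0.38) and least in that led by Scd1 and B3gnt7 (874 and 832 CPM, ratio -0.07). Dusp1 differed most in the Scd1-led cluster (141 and 91.3 CPM, ratio -0.62) and was at 220 and 217 CPM in the cluster led by Hspb1 and Hspa1a. In that heat shock gene-led cluster Nr3c1 had its lowest ratio (99.1 and 66.5 CPM, -0.58), and Fkbp5 had 21 UMIs from ad libitum cells and 3 from FMD cells (ratio -2.0, interval -4.39 to -0.26). Ddit4 was 2 or more times as high there (43.8 and 43.3 CPM) as in the other B cell-like clusters.

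**Figure D5:**
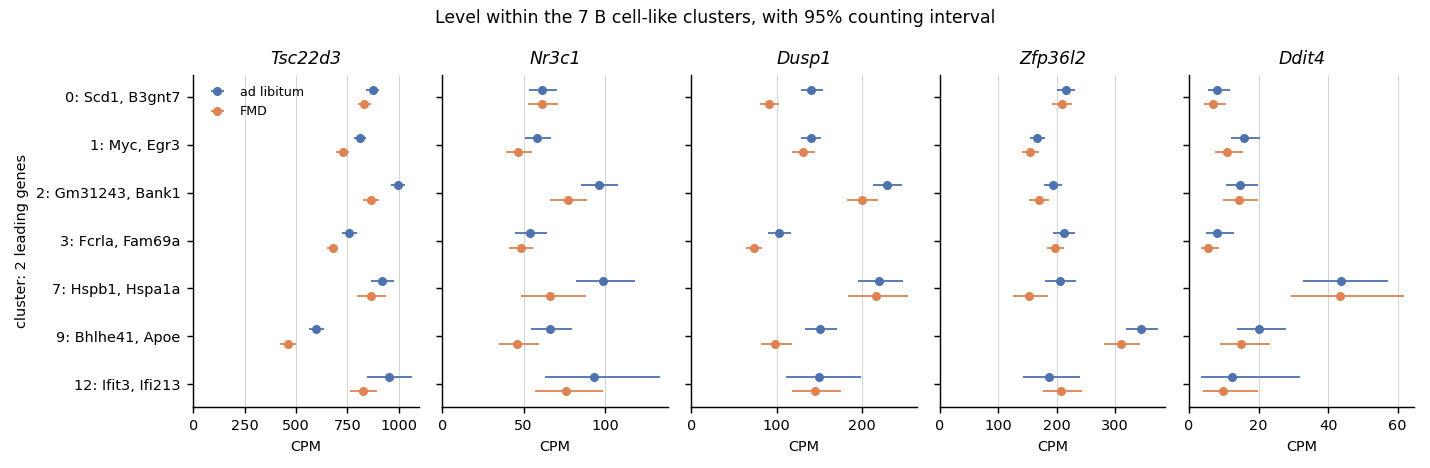
CPM with exact Poisson 95% intervals of Tsc22d3, Nr3c1, Dusp1, Zfp36l2 and Ddit4 in the 7 B cell-like clusters, each named by its number and 2 leading genes, for the ad libitum (blue) and FMD library (orange). Tsc22d3 is lower in the FMD library in all 7, by the most in the Bhlhe41-led cluster (597 against 461 CPM).

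Other groups of genes moved with these values. Immediate early genes, summed, were at 10629 and 8816 CPM in ad libitum and FMD B cell-like cells (log2 ratio -0.27), and heat shock genes at 6315 and 5008 CPM (-0.34). Both groups respond to the handling of tissue as well as to signals in the animal, Dusp1 is itself one of the immediate early genes listed, and their part in the ratios was not tested. The makeup of the class also differed: the Fcrla-led cluster made up 12.8% of the ad libitum and 22.7% of the FMD B cell-like cells, the heat shock gene-led cluster 8.19% and 5.51%, and the cluster led by interferon-induced genes such as Ifit3 2.01% and 5.33%. Marker levels of the class were alike, with 4141 and 4190 CPM for the summed B cell markers and 15.9 and 19.3 CPM for the summed T cell markers.

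A wider list of genes known to be induced by glucocorticoids held 32 genes, of which 20 had at least 100 UMIs in B cell-like cells. By interval 10 of them were lower and 4 higher in the FMD library, beside 9.9% and 10.3% of all genes tested in this class, and their median ratio was -0.16. The lowest were Rgs1 (139 and 73.5 CPM, -0.92) and Rgs2 (199 and 145 CPM, -0.45), regulators of G protein signaling, and the highest were Ahnak (12.6 and 20.6 CPM, 0.70) and Mt1, a metallothionein (14.1 and 19.8 CPM, 0.49). Of the receptor machinery, which includes the members Nr3c1 and Fkbp5, 15 of 18 genes were tested. By interval 7 were lower and 0 higher, with a median of -0.12. Ptges3, the co-chaperone p23, was at 185 and 192 CPM. Among close relatives of the members, 10 of 16 tested were lower and 0 higher, among them Dusp2 (437 and 315 CPM, -0.47) and Tsc22d1 (29.97 and 21.3 CPM, -0.50). The lists also share genes that are not members, such as Dusp2, an immediate early gene, so their counts are not independent. The FOXO and nutrient restriction genes, which include Klf9, had a median of -0.05, with 5 of 20 lower and 2 higher. The hypoxia and glycolysis genes, which include Ddit4, had a median of 0.01, with 1 of 17 lower and 2 higher.

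In regulatory T cell-like cells Ddit4 was the member that differed most. It was 118 CPM (183 UMIs) in the ad libitum library against 208 CPM (464 UMIs), 1.77-fold higher, with a log2 ratio of 0.82 (interval 0.57 to 1.08). Nr3c1 (288 and 359 CPM, 0.32) and Zfp36l2 (554 and 694 CPM, 0.32) were higher too, and Dusp1 was lower (439 and 370 CPM, -0.25). By interval 3 of 8 members were higher, where 12.7% of 4800 genes were, and 1 was lower, where 8.0% were. One member was at least 1.5-fold higher beside 2.94% of genes, and 0 were at least 1.5-fold lower beside 1.85%. Tsc22d3 was at 219 and 231 CPM (0.08, interval -0.13 to 0.28). Sgk1, Fkbp5 and Klf9 had under 100 UMIs each over both libraries and intervals that included 0.

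The regulatory T cell-like class was 1 cluster of 230 ad libitum and 320 FMD cells. With a stricter limit of 10% mitochondrial UMIs, a new clustering gave fewer cells this name. Part of them lay in a cluster led by Il10, Foxp3 and Ccr2 (91 ad libitum and 189 FMD cells). The rest lay in a cluster led by Penk and Tnfrsf4 (64 and 57 cells). The Il10-led cluster made up 58.7% of the ad libitum and 76.8% of the FMD cells that had this name at that limit. Ddit4 was at 157 and 272 CPM in it (106 and 419 UMIs, ratio 0.80, interval 0.49 to 1.12). In the Penk-led cluster Ddit4 was at 118 and 87.6 CPM (55 and 35 UMIs, ratio -0.43, interval -1.09 to 0.21). Tsc22d3 was higher in the FMD library in the Il10-led cluster (174 and 233 CPM, 0.42, interval 0.12 to 0.73), and its interval in the Penk-led cluster included 0 (189 and 158 CPM). Nr3c1 was higher in the Penk-led cluster (371 and 515 CPM, 0.47, interval 0.17 to 0.77) and at 0.23 (interval -0.018 to 0.48) in the Il10-led one. Zfp36l2, higher in the class as a whole, was higher in the Penk-led cluster (307 and 448 CPM, 0.55) but at 693 and 731 CPM in the Il10-led cluster (0.078, interval -0.079 to 0.24). Klf9 was lower in the Il10-led cluster on 12 and 11 UMIs (-1.31, interval -2.63 to -0.003). Summed dendritic cell markers were at 804 and 452 CPM and macrophage or monocyte markers at 519 and 730 CPM in the whole class, and their part was not tested. Of the stress genes induced by ATF4, which share Ddit4 as a member, 3 of 8 tested were higher and 2 lower in the whole class, beside 12.7% and 8.0% of genes, with Slc3a2 at 543 and 658 CPM and Phgdh at 49.5 and 32.3 CPM. Hsd11b1, the enzyme that regenerates active glucocorticoid from its inactive form, was at 20.6 and 36.7 CPM (32 and 82 UMIs, 0.84, interval 0.23 to 1.48).

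Helper T cell-like cells showed smaller differences. Zfp36l2 was higher in the FMD library (967 and 1231 CPM, ratio 0.35, interval 0.28 to 0.42), and the intervals of the other 7 members included 0, from Sgk1 at -0.13 to Fkbp5 at 0.28. By interval 1 of 8 members was higher and 0 lower, beside 6.4% and 8.9% of the 6121 genes tested, and 0 reached 1.5-fold in either direction, beside 1.08% higher and 1.54% lower. Within the Ccl20-led cluster of this class Nr3c1 (278 and 341 CPM, 0.29) and Dusp1 (368 and 447 CPM, 0.28) were higher in the FMD library, while in the Izumo1r-led cluster Nr3c1 was at 124 and 119 CPM and Dusp1 was lower (425 and 368 CPM, -0.21). Zfp36l2 was higher in both clusters, at 1133 and 1564 CPM (0.47) in the first and 688 and 812 CPM (0.24) in the second. The Ccl20-led cluster held 281 ad libitum and 230 FMD cells and the Izumo1r-led cluster 179 and 205. Summed CD8 T cell markers were at 495 and 204 CPM and B cell markers at 82.1 and 175 CPM in the class. The part of these differences in the ratios was not tested.

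In the T cell-like class Zfp36l2 was again the one member higher by its interval (552 and 610 CPM, ratio 0.15), beside 7.9% of 4228 genes, and 0 members were lower beside 5.82%. None of the 6 members with at least 100 UMIs reached 1.5-fold, beside 2.2% of genes higher and 1.18% lower. Their levels were close, as for Tsc22d3 at 554 and 532 CPM and Nr3c1 at 68.7 and 70.0 CPM. CD8 T cell-like cells (114 and 85 cells) held Tsc22d3 at 345 and 465 CPM (0.43, interval 0.19 to 0.67), Nr3c1 at 148 and 215 CPM (0.54) and Zfp36l2 at 1337 and 1718 CPM (0.36), each higher in the FMD library, where 6.44% of genes were higher and 7.18% lower by interval. Summed plasma cell markers were at 189 and 1128 CPM in this class, and their part was not tested. Ddit4 went the other way there on 35 and 12 UMIs (39.4 and 19.4 CPM, -1.03, interval -2.11 to -0.05), and the sign turned with a coarser clustering (0.44). Gamma delta T cell-like cells (69 and 47 cells) held Ddit4 at 219 and 411 CPM (126 and 150 UMIs, 0.91, interval 0.55 to 1.26), and Zfp36l2 at 292 and 405 CPM (0.47), while the intervals of the other 6 members included 0; 11.1% of genes were higher and 10.5% lower there. Summed NK cell markers were at 1268 and 608 CPM in that class, and their part was not tested.

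The Klra7-led class had 4 of 8 members higher by interval, beside 9.63% of 3044 genes, and 0 lower beside 6.67%. Ddit4 was at 62.2 and 101 CPM (71 and 105 UMIs, ratio 0.71, interval 0.26 to 1.16) and Klf9 at 36.8 and 57.0 CPM (42 and 59 UMIs, 0.63, interval 0.04 to 1.24). Among the 6 members with at least 100 UMIs these 2 were at least 1.5-fold higher, beside 4.01% of genes, and 0 members were at least 1.5-fold lower, beside 1.45%. Dusp1 (455 and 544 CPM, 0.26) and Zfp36l2 (896 and 1026 CPM, 0.20) were higher by less. Ddit4 was at -0.071 with a limit of 10% mitochondrial UMIs, and Klf9 at -0.38 in cells thinned to 1000 UMIs, so neither direction held under these settings. Summed immediate early genes were also higher in the FMD library in this class (12858 and 15166 CPM, 0.24). The markers of the class differed as well: innate lymphoid cell markers summed to 712 and 1280 CPM, CD8 T cell markers to 6161 and 4347 CPM and T cell markers to 2907 and 2295 CPM. The part of these differences in the ratios was not tested.

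Macrophage or monocyte-like cells (127 and 168 cells) had 4 of 8 members higher by interval, beside 13.3% of 4296 genes, and 1, Klf9 with under 100 UMIs, lower beside 12.4%. Zfp36l2 was 578 CPM (793 UMIs) in the ad libitum library against 1006 CPM (2239 UMIs), a log2 ratio of 0.80 (interval 0.68 to 0.92). Nr3c1 was 39.3 and 66.0 CPM (54 and 147 UMIs, 0.75, interval 0.29 to 1.23), and Ddit4 was 117 and 186 CPM (160 and 413 UMIs, 0.67, interval 0.40 to 0.94). These 3 were at least 1.5-fold higher, beside 4.56% of genes, and 0 of the 6 members with at least 100 UMIs were at least 1.5-fold lower, beside 5.24%. Sgk1 was higher by less (118 and 164 CPM, 0.47, interval 0.20 to 0.75), and when each cell weighed the same the direction turned (-0.19). Klf9 was lower on few counts (41 and 36 UMIs, -0.89), of which 19 came from a single ad libitum cell; it was at -0.39 without the top cell of each library. Tsc22d3 (138 and 137 CPM), Dusp1 (472 and 479 CPM) and Fkbp5 (10.2 and 9.43 CPM) had intervals that included 0.

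The cells of this class were not alike in the 2 libraries. The summed macrophage or monocyte markers were at 2051 and 3015 CPM, with 0 of 11 markers at 0 in either. Summed T cell markers were at 32.1 and 122 CPM (0 of 7 at 0), against 4610 and 4496 CPM in helper T cell-like cells, and epithelial markers at 193 and 38.6 CPM (2 of 7 at 0 in each). Neutrophil markers were at 2143 and 1711 CPM and dendritic cell markers at 1689 and 1739 CPM. The part of these differences in the ratios was not tested. Of 16 inflammatory genes that glucocorticoids are known to repress, 8 had at least 100 UMIs in the class, and 8 of 8 were lower in the FMD library by interval, beside 12.4% of all genes, with a median of -0.83. Cxcl10, an interferon-induced chemokine, was at 760 and 113 CPM (-2.75) and Tnf at 286 and 72.3 CPM (-1.99), while Il1b differed little (3781 and 3402 CPM, -0.15). The list did not have 1 direction in the other classes. Over all kept cells 5 of 14 were lower and 5 higher, beside 12.4% and 16.0% of all genes. In regulatory T cell-like cells 3 of 4 were lower and 1 higher, beside 8.0% and 12.7%. In B cell-like cells 2 of 7 were lower and 1 higher, beside 9.9% and 10.3%. Helper T cell-like cells had 3 of 6 lower and 1 higher, beside 8.9% and 6.4%. The Klra7-led class had 2 of 6 lower and 4 higher, beside 6.67% and 9.63%. Cxcl10 was at 37.7 and 99.4 CPM (1.40) there and Ifng at 103 and 226 CPM (1.13). Of 22 tested genes of the wider induced list 9 were higher and 6 lower in macrophage or monocyte-like cells, beside 13.3% and 12.4%. Rgs1 (669 and 1181 CPM, 0.82) and Irs2 (45.2 and 79.5 CPM, 0.82) were highest. Cebpd (115 and 49.4 CPM, -1.22) and Anxa1 (350 and 161 CPM, -1.12) were lowest.

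Neutrophil-like cells (68 and 54 cells) had differences in 3 members that counting error did not cover, in a class where 19.1% of genes were higher and 15.6% lower by interval. Tsc22d3 was at 299 CPM (82 UMIs) in the ad libitum library against 133 CPM (26 UMIs) (-1.17, interval -1.87 to -0.52). Zfp36l2 was at 142 and 357 CPM (39 and 70 UMIs, 1.33, interval 0.74 to 1.93). Dusp1, the most counted member there with 920 and 840 UMIs, was at 3358 and 4288 CPM (0.35, interval 0.22 to 0.49). All 3 kept their direction in the 8 alternatives that gave a value for the class. The other 5 members had at most 27 UMIs per library and intervals that included 0. Summed T cell markers were at 32.8 and 102 CPM in this class, and their part was not tested.

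Among germinal centre B cell-like cells (73 and 85 cells) Dusp1 was at 128 and 81.0 CPM (-0.66, interval -1.05 to -0.28) and Ddit4 at 42.0 and 19.5 CPM (40 and 27 UMIs, -1.11, interval -1.87 to -0.37), both lower in the FMD library, in a class where 10.1% of genes were lower and 8.51% higher by interval. In thinned cells the Dusp1 ratio was 1.72, but a UMI was then left in 1.47% of 68 ad libitum and 13.3% of 83 FMD cells. Summed T cell markers were at 774 and 339 CPM in this class, and their part in the ratios was not tested. Plasma cell-like cells (93 and 32 cells) likewise held less Dusp1 in the FMD library (238 and 155 CPM, -0.62, interval -0.99 to -0.26), and the intervals of the other 7 members included 0, where 6.85% of genes were lower and 9.98% higher. Immediate early genes as a whole were also lower there (14549 and 11336 CPM, -0.36). Summed CD8 T cell markers were at 236 and 7.7 CPM and B cell markers at 1792 and 2573 CPM in plasma cell-like cells, and their part was not tested.

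Across the 88 values of 8 genes in 11 classes, 20 intervals lay above 0, 13 below 0 and 55 included 0. Of the 59 values with at least 100 UMIs, 20 were above and 10 below 0, beside 9.81% and 8.94% of the 41853 gene and class pairs with as many UMIs; the members repeat across classes, so these are not independent values. Zfp36l2 was higher by interval in 8 classes and lower in 1, B cell-like cells. Ddit4 was higher in 4 and lower in 3, Nr3c1 higher in 3 and lower in 1, and Dusp1 higher in 2 and lower in 4. Tsc22d3 was higher in 1 and lower in 2, Sgk1 and Klf9 higher in 1 and lower in 1 each, and Fkbp5 had 11 of 11 intervals that included 0. Fkbp5 reached 100 UMIs in 2 of the 11 classes and its intervals were wide, as in regulatory T cell-like cells (0.51, interval -0.20 to 1.24).

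The share of cells with at least 1 UMI was set beside these levels in cells thinned to 1000 UMIs, since deeper cells show more genes. No class is known to lack these genes, so no background share from free RNA could be read. In B cell-like cells Tsc22d3 was found in 50.7% of 3071 ad libitum cells (interval 48.9% to 52.5%) and 46.2% of 2737 FMD cells (44.3% to 48.1%), against 88.9% and 89.4% without thinning. Dusp1 was found in 12.3% and 10.9% of these cells, with overlapping intervals. In macrophage or monocyte-like cells Zfp36l2 was found in 32.4% of 105 and 46.8% of 158 thinned cells and Sgk1 in 9.52% and 17.1%, again with overlapping intervals, and Nr3c1 in 1 of the 105 cells (0.95%, interval 0.02% to 5.19%) against 10.1% (5.90% to 15.9%). In regulatory T cell-like cells Ddit4 was found in 12.1% and 14.9%, a smaller gap than in its CPM, with up to 10 UMIs in an ad libitum and up to 31 UMIs in an FMD cell.

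The genes whose levels ran most alike with each member were listed over 20 profiles, 10 named classes in 2 libraries, by Pearson's r of log2(CPM + 10) among 10541 genes. The profiles share libraries and the 2 libraries of a class are not independent, so r is a description. For Nr3c1 the most alike were Sytl2 (0.95), Il12rb1 (0.95) and 1500009L16Rik (0.95), and for Ddit4 Ece1 (0.92), Havcr2 (0.92) and Marveld1 (0.91). Dusp1 ran with Mxd1 (0.97), Rnf11 (0.93) and Ndel1 (0.93), and Sgk1 with St3gal4 (0.89), Rin3 (0.88) and Slc25a20 (0.87). Tsc22d3 ran with Zfp950 (0.89), Cd55 (0.83) and E130102H24Rik (0.81), Zfp36l2 with Slc9a9 (0.87), Ms4a6b (0.86) and P2rx7 (0.85), Fkbp5 with Il17a (0.85), Tdrkh (0.83) and Anp32a (0.83), and Klf9 with Errfi1 (0.89), Adgrg5 (0.84) and Sipa1l1 (0.83). Errfi1 is itself on the wider list of glucocorticoid-induced genes. Among the 8 members the pair most alike was Fkbp5 and Nr3c1 (0.66), ahead of Nr3c1 and Ddit4 (0.63), and the pair least alike was Tsc22d3 and Ddit4 (-0.73).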

How the data were processed

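The deposited tables hold unnormalized UMI counts for every gene in every barcode, made by the authors with Cell Ranger 3.1.0, per the file headers. The submitters' processing notes also name CASAVA 1.8, Seurat 2.3.4 and the build GRCm38, without their roles. The members and gene lists were chosen with earlier results of these data known.

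Of 6089 ad libitum and 5877 FMD barcodes, each with at least 500 UMIs, cells with under 200 genes (475 and 441) or over 20% mitochondrial UMIs (661 and 694) were removed. Scrublet, at an expected rate of 0.05, called 0.04% of cells in each library and so did not work. Cells with at least 5 UMIs and 0.5 per 1000 UMIs of 2 marker panels were removed as doublets. The panels were B cell, T cell, myeloid and erythroid, and 88 and 123 doublets were removed in all. One cell with 5% or more hemoglobin UMIs was removed, a filter added after seeing the data. Cells were clustered with scanpy 1.11.5 and leidenalg 0.10.2 (2000 variable genes without immunoglobulin, T cell receptor, mitochondrial, ribosomal and the 8 member genes, 30 principal components, 15 neighbors, Leiden resolution 1, seed 1), which gave 22 clusters. Clusters were named from marker lists by a rule adjusted after the clusters were seen, so names may differ from the study's own.

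Counts were summed per library and class and scaled to UMIs outside immunoglobulin and mitochondrial genes. Intervals (95%) are exact Poisson for levels, exact conditional binomial for ratios and Clopper-Pearson for shares (scipy 1.17.1), and cover counting error only. With 1 library per diet no test was made. Ratios over all genes used genes with at least 100 UMIs in a class. Members past 1.5-fold were counted class by class only in classes of at least 100 cells per library. Members off 0 by interval were counted in all 11 classes. All 8 members were named in every class; of each list, genes were named from the 2 highest and 2 lowest ratios among those with at least 100 UMIs in the class, and of the genes most like a member the 3 with the highest correlation. Of the 62 symbols on more than 1 line the first line was used. The ratio step was tested on simulated data. Alternatives were another mitochondrial limit, clustering, scaling total, doublet treatment, weighting, thinning, centring, cluster mix, UMI minimum and fold.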

Additional observations from a re-analysis of the deposited data

Results flagged for a closer look

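For 7 of the 8 members the log2 ratio of FMD over ad libitum lay on opposite sides of 0 in 2 cell classes, with both counting intervals off 0; the difference between the classes was not tested. Tsc22d3 was at -1.17 in neutrophil-like and 0.43 in CD8 T cell-like cells. Sgk1 was at -0.65 in B cell-like and 0.47 in macrophage or monocyte-like cells, and Nr3c1 at -0.30 and 0.75 in the same classes. Klf9 was at -0.89 in macrophage or monocyte-like cells, where 1 cell held 19 of 41 ad libitum UMIs, and 0.63 in the Klra7-led class. Ddit4 was at -1.11 in germinal centre B cell-like and 0.91 in gamma delta T cell-like cells, and Dusp1 at -0.66 in germinal centre B cell-like and 0.35 in neutrophil-like cells. Zfp36l2 was at -0.12 in B cell-like and 1.33 in neutrophil-like cells.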

How the results depend on the processing

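No paired analysis was possible because each diet has 1 library. Of 773 values of members in classes under 9 alternatives, 712 stayed within the counting interval of the main value. The sign differed from the main one in 62 of the 773, spread over 45 of 96 gene and class pairs; 38 of the 96 had an interval off 0, and 6 of these took the other sign in at least 1 alternative. Of the 119 values for ratios past 1.5-fold with an interval off 0, 115 kept their sign and 101 stayed past 1.5-fold. The 4 of other sign were Klf9 in Klra7-led cells (-0.38) and Dusp1 in germinal centre B cell-like cells (1.72) with cells thinned to 1000 UMIs, Ddit4 in Klra7-led cells (-0.071) with at most 10% mitochondrial UMIs and Ddit4 in CD8 T cell-like cells (0.44) at Leiden resolution 0.5; the cause was not tested. Sgk1, with a smaller ratio off 0, took the other sign in macrophage or monocyte-like cells (-0.19) and over all kept cells (-0.089) as a mean over cells, and over all kept cells with an equal cluster mix (-0.011). The median of the 8 members over all kept cells was -0.03 as a mean over cells and -0.021 with an equal cluster mix, and 0.43 in Klra7-led cells as a mean over cells. The median in B cell-like cells (-0.32) lay between -0.35 and -0.18 in 9 alternatives, nearest to 0 in thinned cells. No value could be given for the Klra7-led class at Leiden resolution 0.5, for an equal cluster mix where a class is 1 cluster, and where thinning left 0 UMIs.

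The counts over all genes depend on the UMI minimum and the fold. With at least 20 UMIs, with at least 1 UMI in both libraries, and at 2-fold, the genes lower in the FMD library numbered 575, 1514 and 56 over all kept cells (163 at 1.5-fold with at least 100 UMIs), 348, 1146 and 6 in B cell-like (62), 467, 1178 and 23 in helper T cell-like (94), 482, 1261 and 3 in T cell-like (50), 480, 1190 and 14 in regulatory T cell-like (89), 484, 1323 and 5 in Klra7-led (44) and 904, 2324 and 73 in macrophage or monocyte-like cells (225). In the same order the genes higher numbered 635, 1525 and 82 (233), 273, 905 and 3 (54), 460, 1331 and 8 (66), 552, 1337 and 18 (93), 668, 1337 and 19 (141), 773, 1770 and 30 (122) and 735, 1439 and 38 (196). Depth limits Fkbp5, Klf9 and Sgk1, which had under 100 UMIs in most classes.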
